A study of Solanum tuberosum with 72 samples.

Results

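Roots of potato seedlings (Solanum tuberosum, variety Gilroy) kept at 4 °C for 27 h were compared with roots harvested after 27 h without stress. The comparison of means rests on 6 of the 72 spotted complementary DNA (cDNA) arrays of the series, 3 cold arrays and 3 no-stress arrays. These arrays were chosen by their labelled tissue, treatment and time. The test was fitted over all 36 root arrays, which include the heat and salt treatments and the earlier times. Cold-treated leaves and heat-treated roots of 27 h are compared with the cold roots further below. Of the 32448 spots on an array, 19854 had a value on at least 1 of the 6. The seedlings were raised from commercial true seed on rafts over hydroponic medium for 5 weeks, at 25 °C with 16 h of light and 8 h of dark. For cold, the medium was exchanged for medium chilled beforehand and the boxes stood on ice. The no-stress plants had their medium exchanged in the same way. A sample pooled 6 plants from 2 boxes, and per the labels the whole experiment was carried out independently 3 times, so the 3 arrays of a group are its 3 replicates. Each array set a query RNA, from cold or further unstressed roots, against a reference RNA pooled from 6 boxes of control roots of the same time. True seed was sown, and whether the seedlings were genetically uniform is not given in the sources used here. Values are ratios against the same tissue, so they give no expression levels, and the tissue label could not be set against marker levels.

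In plants, chilling stiffens membranes and is followed by calcium signals, by activation of mitogen-activated protein (MAP) kinases and calcium-dependent kinases, and by changes in transcription factors. Sugars, polyamines and antioxidants are classes of small molecules known for accumulating in chilled tissue. In potato the best known cold response is the sweetening of stored tubers, in which starch is converted to sucrose and then, by invertase, to hexoses. Roots hold plastids without a full photosynthetic apparatus, but roots of hydroponic seedlings in light can carry transcripts of photosynthesis genes.

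A probe here is a cDNA clone, measured as the mean of its 2 spots. The log2 ratio of an array is that of query over reference, a direction that is likely from the labels' channel names but not settled, and if it were the other way round every "higher" below would read "lower". The difference is the mean log2 ratio of the cold arrays minus that of the no-stress arrays, so a difference of 1 is a change by a factor of 2. The 6 arrays held between 16703 and 17944 spots with a value. The standard deviation (SD) of the log2 ratio over clones was 0.67 to 0.79 on the cold arrays and 0.26 to 0.34 on the no-stress arrays. Cold arrays correlated with each other over clones with r from 0.81 to 0.91, no-stress arrays with r from 0.39 to 0.53, and a cold with a no-stress array with r from -0.03 to 0.24. Cold replicate 3 had the smallest SD of the cold arrays.

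Of 8938 tested probes, 3499 (39.1%) differed between cold and no stress at a Benjamini-Hochberg adjusted p under 0.05, which is what "passed" means below. They comprised 1832 higher in cold (20.5%) and 1667 lower (18.7%), and after quantile normalization 2041 passed. Among the higher ones, 661 differed by at least 1 on the log2 scale, 145 by at least 2 and 37 by at least 3. Among the lower ones these counts were 407, 56 and 4. The median size of a difference that passed was 0.81 upward and 0.69 downward, against a median standard error (SE) of 0.17, and the median difference over all tested probes was -0.00. In 3110 of the 3292 probes that passed with all 6 values, no cold value overlapped a no-stress value. Passing itself favours such a separation, and its share among all 8045 probes with 6 values was not counted. On the no-stress arrays alone, 35 of 9336 tested probes were above 0 and 102 below. The samples were whole roots, so fewer cells of a type and less RNA per cell cannot be told apart.

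**Figure D1:**
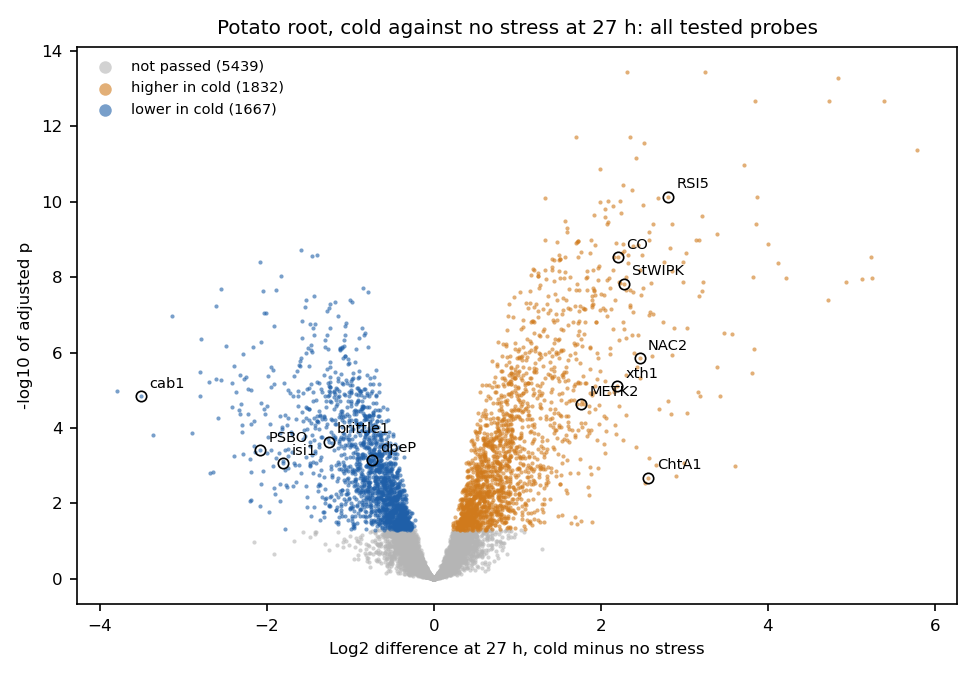
Each point is 1 of the 8938 tested probes, with the log2 difference at 27 h (cold minus no stress) on the x axis and -log10 of the adjusted p on the y axis. The 1832 probes higher in cold reach 5.79, and the 1667 lower probes reach -3.79. The circles mark 12 named genes.

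The largest increase belonged to a clone without a gene name, at spot 151274, whose log2 ratio was 5.72, 6.59 and 5.48 on cold replicates 1 to 3 and 0.14, 0.06 and 0.24 on the no-stress arrays. Its difference was 5.79 ± 0.32 (SE), or 55.2-fold. The clone was already higher by 2.17 at 3 h and by 5.29 at 9 h of cold. A second such clone, at spot 142538, was higher by 5.40 ± 0.30, with 2 of 3 cold arrays measured. Of the 100 largest differences that passed, 80 were increases, 11 belonged to clones with a gene name and 86 to clones with no annotation. Gene names were known for 304 tested probes of 181 genes. Of these probes, 74 rose and 67 fell, 46.4% together. By gene, 42 rose and 32 fell in most of their tested probes, 92 had no probe that passed, and 3 genes (PSBR, Cyp and GAPDH) had probes that passed in opposite directions. The 14 highest and 14 lowest of these genes, ranked by the median over their probes, are described below. In all 28 the cold and no-stress values did not overlap, and 27 of them had all 6 values. Their choice on these same arrays favours such a separation, which also held in 3110 of 3292 probes that passed with 6 values.

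Of 16 tested probes for 13 transcription regulators, 6 rose, none fell and 10 did not pass, with a list median of 0.31. The 37.5% that passed lies near the 39.1% of all probes. The WRKY family, zinc-finger proteins that bind a short promoter motif and are known for roles in defence and wounding, gave the gene with the highest median over its probes, STWRKY8. Clone 131718 of STWRKY8 had log2 ratios of 2.48, 1.96 and 1.42 on the cold arrays and -0.45, -0.53 and -1.04 on the no-stress arrays. Every cold array was far above every no-stress array, and the no-stress arrays themselves lay below 0. The difference was 2.63 ± 0.30 (6.18-fold, adjusted p = 9.5e-08), and the second clone gave 3.18 ± 0.34. StWRKY16 had 1.86, 0.96 and 0.38 in cold against -0.46, -0.90 and -1.0035, a difference of 1.86 ± 0.31 (adjusted p = 2.69e-05). The third member, WRKY1, read 0.98, 0.00 and -0.40 in cold and did not pass (0.30 ± 0.29, adjusted p = 0.427).

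NAC2, of the plant-specific NAC transcription factors, had log2 ratios of 2.50, 2.26 and 3.23 in cold and -0.25, 0.31 and 0.53 without stress. The difference was 2.47 ± 0.34 (adjusted p = 1.43e-06). CO, a CONSTANS-type regulator known from the day-length control of flowering and, in potato, of tuber formation, stood at 2.85, 2.26 and 2.10 against -0.10, 0.29 and 0.41. It rose by 2.20 ± 0.21 (4.60-fold, adjusted p = 2.94e-09), with cold replicate 1 the highest. The Dof zinc-finger gene dof1 rose by 1.01 ± 0.16 (adjusted p = 8.67e-06). The regulators that did not pass included IAA2 and IAA3, repressors of auxin response (0.35 ± 0.18 and 0.31 ± 0.16; IAA3 passed at 0.52 without cold replicate 3, adjusted p = 0.0132), and the homeobox gene BEL5, whose transcript is known as a mobile tuberization signal (-0.02 and 0.30 in its 2 clones).

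**Figure D2:**
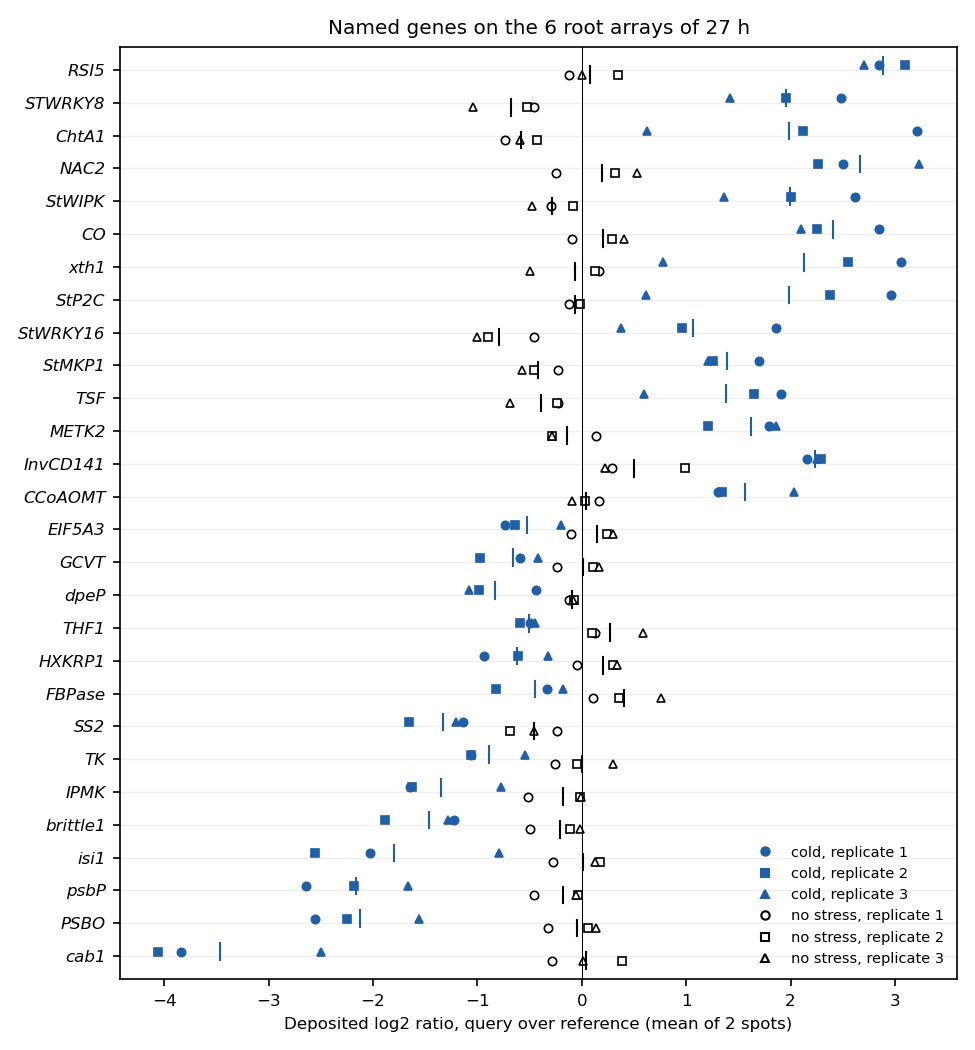
Log2 ratios of the 14 highest and 14 lowest named genes on the 6 root arrays of 27 h (filled symbols cold, open symbols no stress, symbol shape the replicate number, short line the group mean). No gene has overlapping groups, which the choice of genes on these same arrays favours. Cold replicate 3 (triangles) is the lowest cold value in 10 of the 14 genes that rose.

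Among kinases and phosphatases of stress signalling, rises outnumbered falls. Of 17 tested probes for 14 genes, 9 rose, 2 fell and 6 did not pass, and the median was 0.55. So 64.7% passed, beside 39.1% of all probes. StWIPK, a MAP kinase named for its induction by wounding, had log2 ratios of 2.61, 2.0 and 1.36 in cold and -0.29, -0.09 and -0.47 without stress, a rise of 2.28 ± 0.24 (4.84-fold, adjusted p = 1.5e-08). StMKP1, a phosphatase that inactivates MAP kinases, had 1.70, 1.26 and 1.21 in cold against -0.23, -0.45 and -0.57. Its clones rose by 1.81 ± 0.21 and 1.88 ± 0.26, so a MAP kinase and a phosphatase of that class were both higher in all 3 cold samples. Among the other MAP kinases StMPK2 rose by 0.59 ± 0.15 (adjusted p = 0.00192; 0.133 after quantile normalization), while StMPK1, StMPK3 and StMPK4 did not pass, with differences from -0.04 to 0.43 (StMPK4 passed after quantile normalization, adjusted p = 0.0423).

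StP2C, a protein phosphatase 2C, a class that includes negative regulators of abscisic acid signalling, showed the widest spread among replicates of this list. Its log2 ratios were 2.96, 2.38 and 0.61 in cold and -0.12 and -0.01 on the 2 no-stress arrays with a value. The difference was 2.05 ± 0.44 (adjusted p = 0.000461), and 2.74 without cold replicate 3. Of the calcium-dependent kinases, CDPK2 rose by 0.69 ± 0.13 (adjusted p = 7.52e-05), CDPK4 by 0.65 ± 0.10 (adjusted p = 1.46e-05) and 2 CDPK5 clones by 0.55 ± 0.10 (adjusted p = 0.000129) and 0.57 ± 0.18 (adjusted p = 0.0137). The second CDPK5 clone lost the call after quantile normalization (adjusted p = 0.363) and without cold replicate 2, cold replicate 3 or no-stress replicate 2 (0.0575, 0.0811 and 0.0579). CDPK1 did not pass (0.28 ± 0.13), except without cold replicate 3 (adjusted p = 0.047), without no-stress replicate 2 (0.0428) or with array weights (0.0262). GAL83, a subunit of the SnRK1 energy-sensing kinase, was among the 2 that fell, by 0.40 (adjusted p = 0.0464), a call lost with replicates as a block (0.0522), and its catalytic partner PKIN1 did not pass (0.37 ± 0.15), but did without cold replicate 1 (adjusted p = 0.0258). The number of list probes that fell ranged from 0 to 2 when 1 array was left out.

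RSI5 was the named gene with the lowest adjusted p of the 28. Its log2 ratios were 2.84, 3.10 and 2.71 in cold and -0.12, 0.35 and 0.00 without stress. The difference was 2.81 ± 0.21 (6.99-fold, adjusted p = 7.33e-11). TSF had 1.91, 1.65 and 0.59 in cold against -0.23, -0.24 and -0.69 and rose by 1.77 ± 0.23 (adjusted p = 6.64e-07). Both genes are named as the annotation gives them, with no product description.

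ChtA1, an acidic chitinase of the kind that degrades fungal cell walls, had the largest difference of the tested defence genes. Its log2 ratios were 3.21, 2.12 and 0.62 in cold and -0.74, -0.42 and -0.59 without stress, so the cold SD was 1.30 against 0.16. The difference was 2.57 ± 0.64 (adjusted p = 0.00207), or 3.25 without cold replicate 3, and the second clone gave 2.53 ± 0.66 (adjusted p = 0.0514 after quantile normalization). These 2 clones were the only ones of 18 tested probes for defence proteins and proteinase inhibitors that rose, and 1 fell, 16.7% in all against 39.1% of all probes. The one that fell was a clone of LAP, leucine aminopeptidase, by 0.42 ± 0.09 (adjusted p = 0.000325), and its 2 other clones did not pass. The Kunitz-type inhibitor KTI-C (4 clones from -0.22 to 0.06), the proteinase inhibitor PIN-II (-0.52 and -0.41) and the pathogenesis-related gene PR1B (-1.26 ± 0.72) did not pass. PR1B read -0.54, -2.62 and -2.95 in cold, and without cold replicate 1 it passed at -2.01 (adjusted p = 0.0369). PIN-II clone 132891 passed with replicates as a block (-0.56, adjusted p = 0.0452), after quantile normalization (-0.72, adjusted p = 0.0218) and without cold replicate 1 (adjusted p = 0.0445).

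In methionine and polyamine metabolism, 16 of 20 tested probes for 6 genes rose, none fell and 4 did not pass, with a median of 0.89. The 80% that passed stands beside 39.1% of all probes. The median log2 ratio of the list was 0.81, 1.07 and 1.19 on the cold arrays and 0.27, 0.05 and -0.03 on the no-stress arrays, and leaving out 1 array gave 12 to 15 probes that rose. Methionine synthase makes methionine, METK enzymes convert it to S-adenosylmethionine, and S-adenosylmethionine decarboxylase (SAMDC) commits part of that to spermidine and spermine. After quantile normalization 9 probes rose.

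Both genes for the step to S-adenosylmethionine had probes that rose. METK2 had log2 ratios of 1.79, 1.21 and 1.86 in cold and 0.14, -0.29 and -0.29 without stress, a rise of 1.76 ± 0.29 (adjusted p = 2.33e-05), and its second clone gave 1.81 ± 0.27. The 3 METK1 clones differed by 0.52, 0.21 and 0.46, of which 2 passed, but neither did without cold replicate 2 (adjusted p = 0.208 and 0.196), no-stress replicate 1 (0.1 and 0.0924) or no-stress replicate 2 (0.147 and 0.119), and after quantile normalization those 2 had the opposite sign (-0.28 and -0.0949, adjusted p = 0.515 and 0.774). The METK1 clones were above 0 on every no-stress array as well, at 0.27 to 1.02.

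SAMDC was covered by 8 clones, and 7 of them rose, by 1.004 to 1.55. Clone 142514 had log2 ratios of 1.96, 1.25 and 1.66 in cold against 0.30, 0.08 and 0.06, a difference of 1.47 ± 0.16 (2.78-fold, adjusted p = 4.06e-08). The remaining clone, 131671, read 0.00, 0.14 and -0.04 in cold and did not pass (-0.07 ± 0.11). All 5 clones of methionine synthase (MS) rose, by 0.70 to 0.90, the lowest of which (158788) lost the call without cold replicate 3 (0.41, adjusted p = 0.199), no-stress replicate 2 (0.0639) or no-stress replicate 3 (0.0964). Clone 155719, for example, had 0.23, 0.58 and 1.14 in cold against -0.12, -0.20 and -0.38, a difference of 0.88 ± 0.22 (adjusted p = 0.00249). Neither spermidine synthase, SpdSy (0.21 ± 0.24, adjusted p = 0.507), nor ARD, the acireductone dioxygenase of methionine salvage (0.14 ± 0.17, adjusted p = 0.56), passed.

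Among the neighbouring sulfur and amino acid enzymes 3 probes rose, 3 fell and 5 did not pass (54.5% passed, beside 39.1% of all probes). Both clones of Stmet3-1, an ATP sulfurylase that activates sulfate, rose (0.65 ± 0.20, with adjusted p = 0.0618 after quantile normalization, and 0.83 ± 0.23), and TS, threonine synthase, rose by 0.49 ± 0.13 (adjusted p = 0.00301). Of 5 clones annotated CS-B, a cysteine synthase, 3 fell, by 0.54 to 0.76 (1 of them not after quantile normalization, adjusted p = 0.215), and the other two differed by -0.20 and -0.16. So within this list the members moved in both directions.

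Of 7 tested probes for cell wall and UDP-sugar enzymes 4 rose and none fell (57.1% passed, beside 39.1% of all probes). The list median was 0.89, and 2 probes rose after quantile normalization. PEST2 of this list did not pass (-0.06). The gene xth1, a xyloglucan endotransglucosylase/hydrolase that cuts and rejoins wall xyloglucan, had log2 ratios of 3.06, 2.55 and 0.78 in cold and 0.16, 0.12 and -0.49 without stress. It rose by 2.20 ± 0.34 (4.59-fold, adjusted p = 7.69e-06), or by 2.87 without cold replicate 3. Both clones of RGP2, a reversibly glycosylated polypeptide that acts on UDP-arabinose, rose (0.98 ± 0.21 and 0.89 ± 0.17). STUGE45, a UDP-glucose 4-epimerase, rose by 1.30 ± 0.30 (adjusted p = 0.00123; 0.195 after quantile normalization), while its relative STUGE51 did not pass (0.35 and 0.64, the latter 0.91 without cold replicate 1, with adjusted p = 0.0222). CCoAOMT, a methyltransferase of lignin monomer synthesis, had 1.30, 1.35 and 2.03 in cold against 0.16, 0.04 and -0.09, a rise of 1.52 ± 0.27 (adjusted p = 4.68e-05). It was 1 of 2 probes that rose among 7 for phenylpropanoid and shikimate enzymes (28.6%, below the 39.1% of all probes). The flavonol synthase gene FLS (0.53, 0.08 and -0.81 in 3 clones) and the flavanone hydroxylase gene F3H (-0.08 ± 0.54) did not pass, and F3H read -2.005, -0.74 and 0.79 in cold and -1.79, -0.51 and 0.59 without stress, so it varied more between replicate numbers than between treatments. The other probe that rose belonged to PPO, polyphenol oxidase (0.54 ± 0.16, adjusted p = 0.00992; 0.0792 without no-stress replicate 2 and 0.843 after quantile normalization).

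An invertase of the cell wall rose and one of the vacuole fell. InvCD141, a cell wall invertase that splits sucrose outside the cell, had log2 ratios of 2.16, 2.29 and 2.25 in cold and 0.29, 0.99 and 0.23 without stress. The cold arrays lay close together, and the rise was 1.73 ± 0.42 (3.32-fold, adjusted p = 0.00158), although after quantile normalization it was 0.31 and did not pass (adjusted p = 0.665). A second cell wall invertase, InvCD111, did not pass (-0.23 ± 0.28). The vacuolar invertase PAIN-1, the gene tied to tuber sweetening, fell by 0.63 ± 0.18 (adjusted p = 0.00502), with -0.48, -0.60 and 0.09 in cold against 0.36, 0.27 and 0.27.

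Of the 9 tested probes for sucrose metabolism and transport 1 rose and 4 fell (55.6% passed, beside 39.1% of all probes). FBPase, fructose-1,6-bisphosphatase of the path from triose phosphates to sugars, had -0.33, -0.82 and -0.18 in cold against 0.10, 0.36 and 0.76. It fell by 0.85 ± 0.26 (adjusted p = 0.0105), but did not pass without cold replicate 2 (adjusted p = 0.0747) or without no-stress replicate 3 (adjusted p = 0.0713). Its second clone fell by 0.88 ± 0.24. A clone of UGPase, which makes UDP-glucose, fell by 0.53 ± 0.18 (adjusted p = 0.0213), a call that did not hold on leaving out cold replicate 3 (adjusted p = 0.089) or, among the no-stress arrays, replicate 1 (0.0908), nor after quantile normalization (0.0554). The other UGPase clone and both clones of the sucrose synthase sus4 (0.46 and 0.54) did not pass, the latter except without cold replicate 2 (0.96, adjusted p = 0.0461).

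Starch synthesis genes were lower in cold in 5 of 8 tested probes, and none rose, with a median of -0.57. So 62.5% passed, beside 39.1% of all probes. The number that fell was 3 without cold replicate 2, and 1 after quantile normalization. The gene brittle1, named after the maize plastid carrier of adenylates and ADP-glucose, had log2 ratios of -1.22, -1.89 and -1.28 in cold and -0.49, -0.11 and -0.01 without stress. It fell by 1.26 ± 0.25 (adjusted p = 0.00023; 0.0549 after quantile normalization). SS2, starch synthase II, had -1.14, -1.65 and -1.20 against -0.24, -0.69 and -0.46, a fall of 0.87 ± 0.19 (adjusted p = 0.000645; 0.363 after quantile normalization). Its second clone fell by 0.49 (adjusted p = 0.0236), but lost the call without cold replicate 2 (0.144), no-stress replicate 1 (0.101) or no-stress replicate 3 (0.0624), and after quantile normalization it stood at 0.0874. Of the granule-bound starch synthase GBSS, 1 clone fell by 0.86 ± 0.21 (adjusted p = 0.00167; 0.39 after quantile normalization). The second GBSS clone differed by -0.45 (adjusted p = 0.0501) and passed with replicates as a block (0.0327), among other settings. The fifth probe that fell was of agpS3, a subunit of ADP-glucose pyrophosphorylase (-0.66 ± 0.21, adjusted p = 0.0154; 0.0515 without cold replicate 1 and 0.0724 without cold replicate 2).

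The branching enzyme SBE1 stood against this direction, with 1.23, 1.21 and 0.86 in cold against 0.12, 0.11 and 0.51. Its difference of 0.85 ± 0.35 did not pass (adjusted p = 0.0542), but passed with replicates as a block (0.0428) and fitted on the 2 groups alone (0.00608). Starch breakdown gave 2 falls among 6 probes (33.3%, beside 39.1% of all probes), both of dpeP, the disproportionating enzyme of maltodextrin turnover. The dpeP clone 134139 had -0.44, -0.99 and -1.08 in cold against -0.12, -0.07 and -0.08, a fall of 0.74 ± 0.17 (adjusted p = 0.000725), and the second dpeP clone lost the call after quantile normalization (0.159). R1, the glucan water dikinase that starts starch degradation, did not pass (0.34 and 0.29; adjusted p = 0.0342 and 0.0499 without cold replicate 2), nor did the amylase AMYA1 (0.30 ± 0.21).

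Genes of the photosynthetic apparatus held the 3 largest decreases among the 28 genes. Of 15 tested probes for 5 photosystem and light-harvesting genes, 12 fell, 2 rose and 1 did not pass (93.3% passed, beside 39.1% of all probes). Leaving out 1 array gave 8 to 13 that fell. The median log2 ratio of these probes was -2.37, -1.36 and -1.29 on the cold arrays and -0.27, 0.25 and 0.14 on the no-stress arrays. Of these genes, cab1, psbP, PSBO and PSBR are also shoot markers of the design and THF1 is not, while TPT and FBPase of other lists are. Whether a changed share of green tissue had a part in the result was not tested. Cold replicate 1 was the lowest on this measure and no-stress replicate 1 the lowest of its group.

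The gene cab1, for a chlorophyll a/b-binding protein of the light-harvesting complex, had log2 ratios of -3.84, -4.06 and -2.49 in cold and -0.28, 0.39 and 0.01 without stress. It fell by 3.50 ± 0.53 (11.3-fold, adjusted p = 1.42e-05), and all 4 clones fell, with differences from -3.79 to -2.67. PSBO and psbP, subunits of the oxygen-evolving complex of photosystem II, followed. PSBO had -2.56, -2.25 and -1.55 in cold against -0.32, 0.06 and 0.14, a fall of 2.08 ± 0.42 (adjusted p = 0.000395). For psbP the values were -2.64, -2.19 and -1.67 against -0.45, -0.04 and -0.05, a fall of 1.98 ± 0.39 (adjusted p = 0.00017). Both had second clones that fell by about as much, 1.92 for PSBO and 1.96 for psbP. THF1, needed for thylakoid formation, fell by 0.78 ± 0.20 (adjusted p = 0.00287).

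PSBR, a further photosystem II subunit, was split among its 6 clones. Clones 132715 and 145143 rose, by 2.30 ± 0.29 and 2.11 ± 0.28, with log2 ratios of 1.79, 2.71 and 2.33 in cold for the first. Of the other four, 3 fell, by 0.68 to 0.97, 2 of which (133928 and 150316) lost the call without cold replicate 1 (adjusted p = 0.229 and 0.1), no-stress replicate 2 (0.181 and 0.11) or no-stress replicate 3 (0.0933 and 0.0978), the second of them also without cold replicate 3 (0.0572). Clone 142024 did not pass (-0.64, adjusted p = 0.0728), but did with replicates as a block (0.0146), with the cold arrays against 0 (0.0399) and without no-stress replicate 1 (0.0337). The clones carry the same gene symbol in the annotation, so these values cannot be joined into 1 direction for the gene.

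Downstream of light capture, 4 of 6 probes for carbon reduction and triose phosphate export fell and none rose (median -0.81). So 66.7% passed, beside 39.1% of all probes. Transketolase, TK, which shuffles carbon in the Calvin cycle and the pentose phosphate pathway, had -1.06, -1.06 and -0.55 in cold against -0.26, -0.04 and 0.30, a fall of 0.89 ± 0.20 (adjusted p = 0.000896), and its second clone fell by 1.07 ± 0.28. A clone of the triose phosphate translocator TPT had -1.40, -1.43 and -1.36 in cold against -0.38, 0.28 and 0.37 and fell by 1.49 ± 0.34 (adjusted p = 0.000868), while the other TPT clone did not pass (-0.11 ± 0.24). A clone of RPE, ribulose-phosphate epimerase, made up the fourth fall (-0.73 ± 0.26, adjusted p = 0.0295), and lost the call without any 1 of the cold arrays or of no-stress replicates 2 and 3 (adjusted p from 0.0513 to 0.0814) and after quantile normalization (0.124). In photorespiration 2 of 3 probes fell (66.7%). GCVT, the T protein of glycine decarboxylase, had -0.59, -0.97 and -0.41 in cold against -0.23, 0.11 and 0.16, a fall of 0.67 ± 0.21 (adjusted p = 0.0117), but it did not pass without cold replicate 2 (0.0837), without no-stress replicate 3 (0.0522) or after quantile normalization (0.133). LPD2, annotated as a lipoamide dehydrogenase, fell by 0.52 ± 0.11 (adjusted p = 0.000465; 0.112 after quantile normalization).

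**Figure D3:**
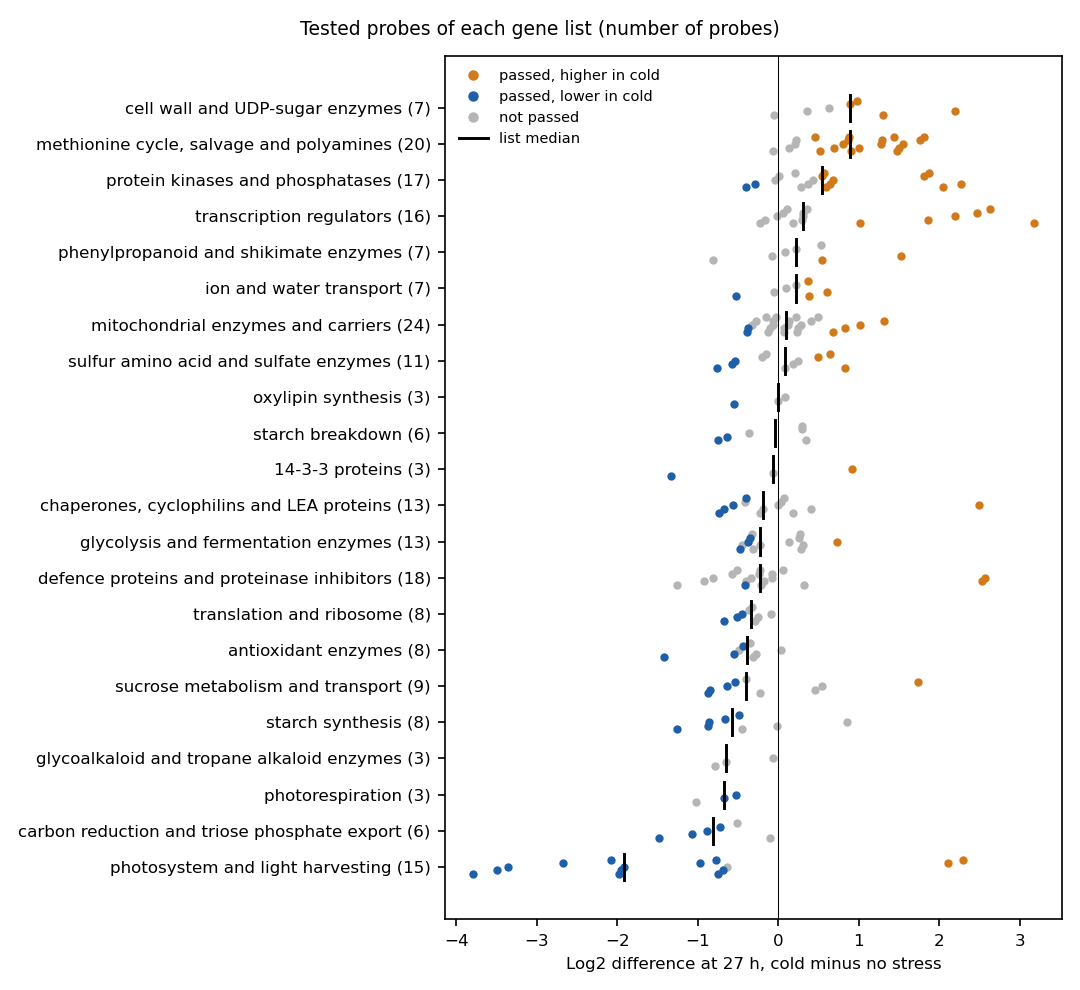
Log2 differences at 27 h (cold minus no stress) of the tested probes of 22 gene lists, 1 point a probe, coloured by whether the probe passed higher, passed lower or did not pass, with the list median as a black line. The photosystem list has the lowest median (-1.92) and the methionine and cell wall lists have the highest (0.89 each), while the median of all tested probes is -0.00.

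A further 3 named genes that fell belong to none of the lists. The gene isi1, which carries the name of an Arabidopsis gene required for normal sucrose induction, had log2 ratios of -2.03, -2.56 and -0.80 in cold and -0.28, 0.18 and 0.13 without stress. It fell by 1.80 ± 0.41 (3.49-fold, adjusted p = 0.000861). IPMK, inositol polyphosphate multikinase, had -1.65, -1.62 and -0.77 against -0.51, -0.02 and -0.01 and fell by 1.17 ± 0.43 (adjusted p = 0.0307). That call was lost without any 1 of cold replicates 1 and 2 and no-stress replicates 2 and 3 (adjusted p = 0.101, 0.102, 0.0827 and 0.0881) and after quantile normalization (0.221). HXKRP1, a hexokinase-related protein, had -0.93, -0.61 and -0.33 against -0.04, 0.30 and 0.34, a fall of 0.82 ± 0.20 (adjusted p = 0.00194).

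Of 24 tested probes for mitochondrial enzymes and carriers 4 rose, 2 fell and 18 did not pass, so 25% passed, below the 39.1% of all probes. Both falls were clones of CI-76kD, a subunit of respiratory complex I, and neither passed without cold replicate 2 (adjusted p = 0.0608 and 0.0669) or after quantile normalization (0.226 and 0.158). Clone 143626 of CI-76kD also lost the call without cold replicate 3 (0.0626) or no-stress replicate 1 (0.0793). AOX, the alternative oxidase, which passes electrons to oxygen without pumping protons, had 1.53 and 1.42 on the 2 cold arrays with a value and 0.53 and -0.21 on 2 no-stress arrays. It rose by 1.32 ± 0.39 (adjusted p = 0.0104; 0.42 after quantile normalization). Both clones of Aconitase, a citrate cycle enzyme, rose, by 1.01 ± 0.17 (adjusted p = 0.0939 after quantile normalization) and 0.68 ± 0.11. The uncoupling protein UCP, which dissipates the proton gradient, did not pass, and its 2 clones differed by 0.22 ± 0.14 and 0.24 ± 0.14.

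In glycolysis and fermentation 1 of 13 probes rose and 3 fell, 30.8% against 39.1% of all probes. The clones of GAPDH, glyceraldehyde-3-phosphate dehydrogenase, ranged from -0.48 to 0.72, with 1 that rose and 2 that fell. The one that rose had 2 values in each group. The third fall was of a clone of GPI, glucose-6-phosphate isomerase (-0.36, adjusted p = 0.0698 when fitted on the 2 groups alone). None of the 3 falls passed without cold replicate 3 (adjusted p = 0.0696 and 0.0546 for GAPDH and 0.0606 for GPI), without no-stress replicate 1 (0.16, 0.112 and 0.0924) or after quantile normalization, and both GAPDH falls lost the call without cold replicate 1 (0.0709 and 0.0587). Without no-stress replicate 3 the GPI clone (0.0522) and 1 GAPDH clone (0.0825) did not pass. ADH1, alcohol dehydrogenase, had -1.01, -1.67 and 0.25 in cold and -1.17, -1.71 and -0.39 without stress, so the groups overlapped, with replicate 3 the highest in both (0.28 ± 0.78, adjusted p = 0.812). Antioxidant enzymes gave 3 falls among 8 probes and no rise, and this 37.5% lies near the 39.1% of all probes. A clone of DHAR, dehydroascorbate reductase, which recycles ascorbate, had -0.80, -1.16 and -0.79 in cold against 0.46, 0.56 and 0.51, a fall of 1.43 ± 0.17 (adjusted p = 1.73e-07), while the second DHAR clone did not pass (-0.27 ± 0.19). The other two falls were clones of DHAR2 (-0.44 ± 0.17 and -0.55 ± 0.20), which lost the call without cold replicate 2 (adjusted p = 0.263 and 0.187), no-stress replicate 1 (0.0517 and 0.0575) or no-stress replicate 3 (0.173 and 0.116) and after quantile normalization (0.63 and 0.8). The first of them also lost it without cold replicate 3 (0.0708) or no-stress replicate 2 (0.0525).

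Cyclophilins, which catalyse proline isomerization in protein folding, were likewise split by clone. Cyp clone 143557 had log2 ratios of 2.72, 2.54 and 2.01 in cold and -0.46, 0.21 and 0.04 without stress, a rise of 2.50 ± 0.20 (5.66-fold, adjusted p = 1.23e-10). Clone 137251 had -1.07, -0.61 and -0.54 in cold and fell by 0.74 ± 0.16 (adjusted p = 0.000508). In all, 1 of 6 Cyp clones rose, 3 fell and the other two differed by -0.41 (adjusted p = 0.039 without cold replicate 3) and 0.18. Of the falls, clone 135621 lost the call without cold replicate 1 (-0.35, adjusted p = 0.208), no-stress replicate 1 (0.075) or no-stress replicate 3 (0.0929) and after quantile normalization (0.13), and clone 156046 after quantile normalization (0.134). Of the chaperone list as a whole 1 of 13 probes rose and 4 fell, 38.5% beside the 39.1% of all probes. The gene annotated Lea, a late embryogenesis abundant protein of a class known from dehydration and cold, did not pass (0.40 ± 0.22, adjusted p = 0.144).

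In the smaller lists, translation factors and ribosomal proteins gave 3 falls among 8 probes, led by the initiation factor EIF5A3, with -0.74, -0.64 and -0.20 in cold against -0.10, 0.24 and 0.30 and a fall of 0.67 ± 0.17 (adjusted p = 0.00221). This 37.5% lies near the 39.1% of all probes, and the other two falls, of eIF5A4 clones, lost the call without cold replicate 1 (adjusted p = 0.0554 and 0.121), no-stress replicate 1 (0.0534 and 0.0599) or no-stress replicate 3 (0.083 and 0.0859), 1 of them also without cold replicate 2 (0.0683). Of the 14-3-3 proteins, adaptors that bind phosphorylated partners, 30G rose by 0.92 ± 0.13 (adjusted p = 3.41e-06). A 16R clone fell by 1.34 ± 0.39 (adjusted p = 0.00667; 0.107 without no-stress replicate 3) and its second clone did not pass. Ion and water transport gave 3 rises and 1 fall among 7 probes (57.1% passed, beside 39.1% of all probes). When 1 array was left out there were 0 to 3 rises and 0 to 1 falls, and after quantile normalization 1 rise and no fall. Oxylipin synthesis gave 1 fall among 3 probes (33.3%), of the lipoxygenase gene POTLX-3. That call was lost without cold replicates 2 or 3 or no-stress replicates 1 or 3. None of the 3 glycoalkaloid and tropane alkaloid probes passed (-0.79 to -0.07).

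Set against earlier times of the same treatment, the response at 27 h held the most probes. Root cold against its own no-stress arrays passed in 13.3% of probes at 3 h (6.23% higher, 7.06% lower) and in 26.5% at 9 h (14.1% higher, 12.3% lower). Of the 1736 probes higher at 27 h that were tested at all 3 times, 897 (51.7%) were also higher at 9 h and 281 (16.2%) at 3 h, and 712 passed at neither earlier time. For the 1642 lower probes the counts were 696 (42.4%), 319 (19.4%) and 757. Seen from the earlier time, 72.7% of probes higher and 65.7% of probes lower at 9 h were so at 27 h. Across 8525 probes the 27 h differences correlated with those at 9 h with r = 0.74 and with those at 3 h with r = 0.41. Probes are not independent replicates, all arrays share the printed clones, and no array enters 2 of these times.

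The test of the change itself, the cold effect at 27 h minus that at 9 h, passed in 497 of 8599 probes (5.78%), 285 higher (3.31%) and 212 lower (2.47%) at the later time, with 299 in all without no-stress replicate 2 and 329 without no-stress replicate 3. The named genes were ranked on their 27 h values, which also enter this test. It passed in 1 of the 14 genes that rose and 2 of the 14 that fell. CO differed by 4.67 at 9 h and by 2.20 at 27 h, a change of -2.47 ± 0.29 (adjusted p = 2.45e-06). FBPase was lower by 2.29 at 9 h and by 0.85 at 27 h, a change of 1.44 ± 0.37 (adjusted p = 0.0189). SS2 went from 0.27 to -0.87, a change of -1.14 ± 0.27 (adjusted p = 0.0115), and GBSS clone 134645 from 1.10 (adjusted p = 0.00019) to -0.86, with adjusted p = 0.000119 for the change. That GBSS clone thus passed in opposite directions at the 2 times. R1 moved the other way, from -0.70 in both clones at 9 h to 0.34 and 0.29, and the change passed in both (adjusted p = 0.00346 and 0.00196). The PSBR clones that rose, 132715 and 145143, stood at 0.41 and 0.40 at 9 h, with a change that passed (adjusted p = 0.00529 and 0.00784). Stmet3-1 went from -0.43 to 0.65 and from -0.33 to 0.83 in its 2 clones (adjusted p = 0.022 and 0.0292).

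Several genes already differed at 3 h. StP2C was higher by 2.74 at 3 h (adjusted p = 1.48e-05) and by 3.89 at 9 h, and xth1 by 2.17 at 3 h (adjusted p = 4.42e-05) and 2.29 at 9 h. RSI5 was lower by 0.63 at 3 h (adjusted p = 0.0458) and higher by 3.16 at 9 h, and NAC2 was lower by 1.01 at 3 h (adjusted p = 0.0442) and higher by 1.38 at 9 h (adjusted p = 0.00261). ChtA1 did not pass at 3 h (-0.17) or 9 h (-0.20), but its change from 9 h did not pass either (2.77 ± 0.91, adjusted p = 0.0704). The methionine list had 0 of 18 probes higher at 3 h and 9 of 21 at 9 h, read beside the shares of all probes above. Aconitase clone 147952 differed by -0.23 at 9 h and rose at 27 h, with adjusted p = 0.000575 for the change. Among the genes that fell, the differences at 3 h were -3.80 for cab1, -3.43 for isi1 and -3.15 for IPMK. At 9 h they were -3.26 for cab1 and -1.52 for isi1, while IPMK did not pass there (-0.42, adjusted p = 0.524).

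**Figure D4:**
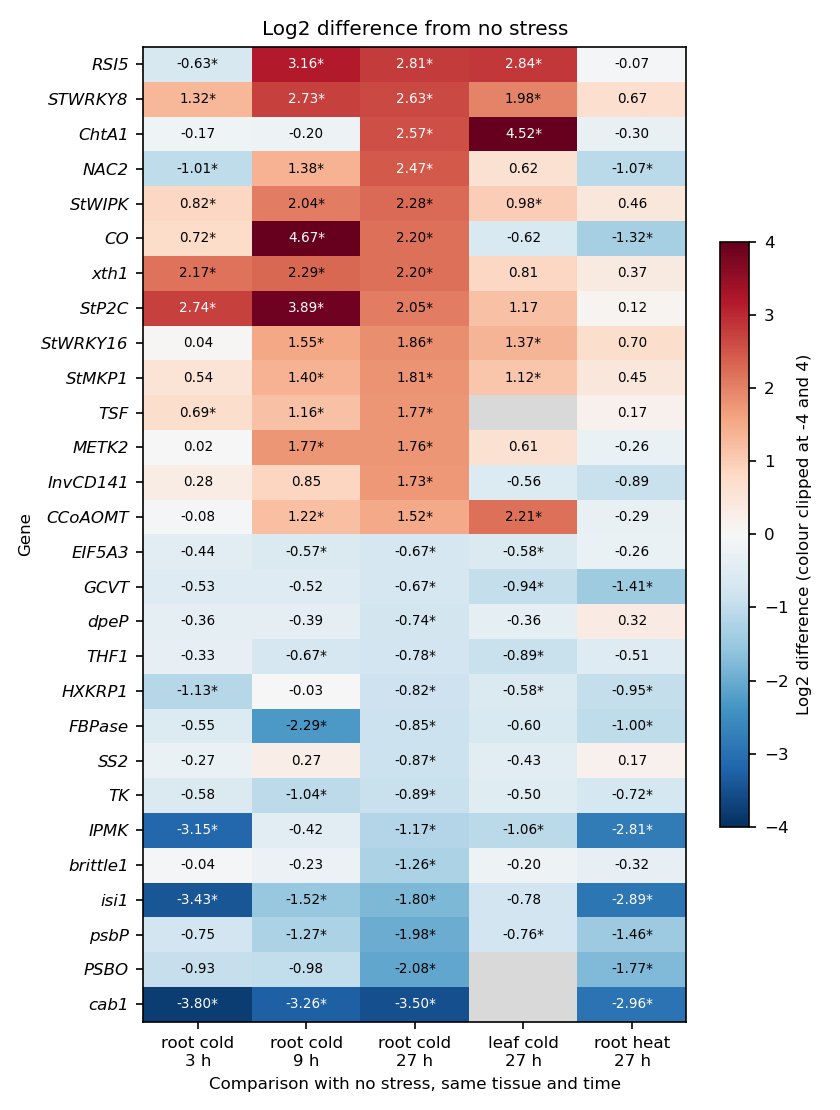
Log2 differences from no stress of the 28 named genes (rows) for root cold at 3, 9 and 27 h, leaf cold at 27 h and root heat at 27 h (columns), with an asterisk where the probe passed and grey where it was not tested. Root heat and root cold at 27 h share their no-stress arrays. CO is highest at 9 h (4.67) and cab1 is low at all 3 times (-3.80, -3.26 and -3.50).

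Leaves of cold-treated seedlings at 27 h, measured on separate arrays, passed in 21.8% of probes against their own no-stress arrays, 11.6% higher and 10.3% lower. Of root probes higher in cold and tested in leaf too, 587 of 1773 (33.1%) were higher in leaf and 39 lower. Of lower probes, 533 of 1617 (33.0%) were lower in leaf and 32 higher. Seen from the leaf, 55.2% of higher and 59.1% of lower probes passed the same way in root. The root and leaf differences correlated with r = 0.56 over 8655 probes, as a description. The difference between the tissues' effects passed in 1251 of these probes (14.5%), 685 with a higher value in root (7.91%) and 566 with a lower one (6.54%).

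The named genes were ranked on the root values that enter this test, which favours a larger effect in root. Of the 13 rising genes tested in both tissues, 5 had a higher effect in root. CO differed by 2.20 in root and -0.62 in leaf, a root minus leaf difference of 2.83 ± 0.37 (adjusted p = 1.27e-07). InvCD141 differed by 1.73 and -0.56 (2.29 ± 0.55, adjusted p = 0.00274), and NAC2 by 2.47 and 0.62 (1.845 ± 0.54, adjusted p = 0.014). The leaf values of CO, InvCD141 and NAC2 did not themselves pass against no stress (adjusted p = 0.134, 0.24 and 0.284). The other two were StWIPK (1.30 ± 0.39, adjusted p = 0.0183) and METK2 (1.15 ± 0.38, adjusted p = 0.0327), of which the second METK2 clone did not pass (adjusted p = 0.121). SAMDC clone 142514 also differed, at 1.47 in root and 0.19 in leaf (1.28 ± 0.23, adjusted p = 5.62e-05), as had dof1 (1.15 ± 0.23, adjusted p = 0.000235) and Cyp clone 143557 (2.24 ± 0.28, adjusted p = 4.88e-08).

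Other named genes did not show a difference between tissues that passed. RSI5 rose by 2.81 in root and 2.84 in leaf, with a root minus leaf difference of -0.03 ± 0.40. ChtA1 rose by 2.57 in root and 4.52 in leaf, and the difference of -1.95 ± 0.82 did not pass (adjusted p = 0.105). CCoAOMT rose by 1.52 and 2.21 (adjusted p = 0.282 for the difference). Of the 12 falling genes tested in both, only brittle1 passed, with -1.26 in root and -0.20 in leaf (-1.06 ± 0.35, adjusted p = 0.0317). The clones of cab1 and PSBO were not tested in leaf.

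**Figure D5:**
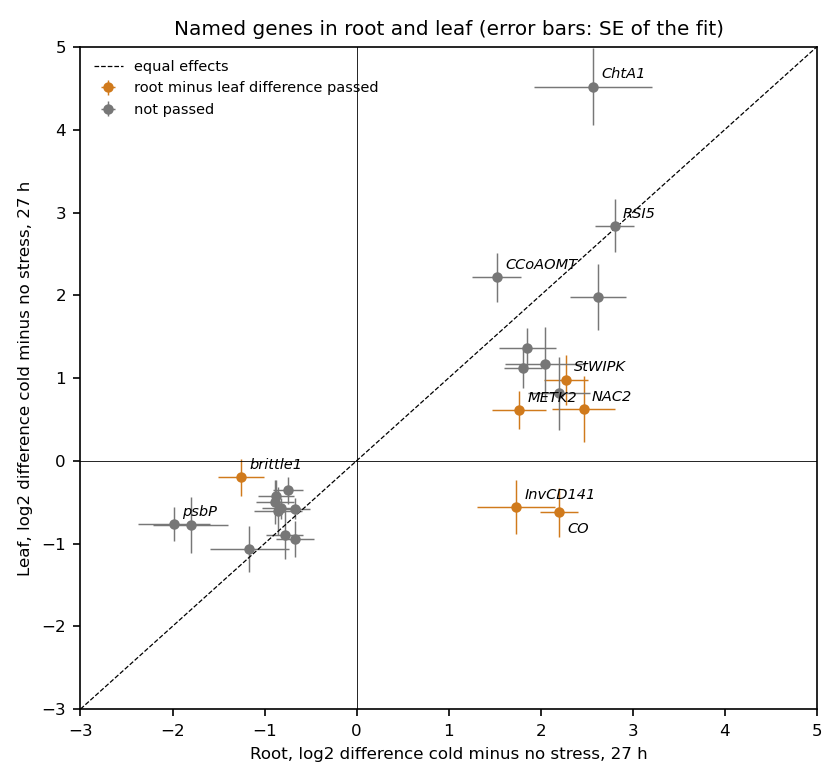
Log2 difference of cold minus no stress at 27 h in root (x axis) against leaf (y axis) for the 25 named genes tested in both, with SE bars and a dashed line of equal effects. The 6 genes in orange passed the test of the root minus leaf difference. Among them CO and InvCD141 are above 0 in root and below 0 in leaf, but neither leaf value passed.

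Cold and heat, the other temperature treatment of the series (35 °C), were compared directly in roots at 27 h, where the no-stress arrays cancel. The named genes were ranked on the same cold arrays, so the choice of genes favours the direction given here. Of 8875 probes 4182 (47.1%) differed, 2140 higher (24.1%) and 2042 lower (23.0%) in cold, and 2602 when fitted on its own groups alone (1422 higher, 1180 lower). All 14 rising genes were higher in cold than in heat, from 1.15 for StWRKY16 (adjusted p = 0.00334) to 3.54 for NAC2 (adjusted p = 2.26e-09). Against the same no-stress arrays that the cold comparison uses, CO stood at -1.32 and NAC2 at -1.07 in heat.

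Of the 14 falling genes, 4 were lower in cold than in heat (SS2, dpeP, brittle1 and EIF5A3), 3 were higher in cold (isi1, IPMK and GCVT), and 7 did not pass. For cab1 the cold minus heat difference was -0.54 (adjusted p = 0.426), for PSBO -0.31 (adjusted p = 0.577) and for psbP -0.52 (adjusted p = 0.28). Heat against no stress passed in 20.2% of all probes, 10.2% higher and 10.1% lower, and shares its no-stress arrays with the cold comparison. In heat against no stress 9 of the 14 falling genes passed as lower and none as higher, which the shared no-stress arrays favour. The values of isi1, IPMK and GCVT in heat were -2.89, -2.81 and -1.41, each below that in cold. Those of cab1, PSBO and psbP in heat were -2.96, -1.77 and -1.46. The median of the photosystem list was -1.46 in heat and -1.92 in cold. For dpeP the cold minus heat difference was -1.06 (adjusted p = 7.02e-06), with a value of 0.32 in heat.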

How the data were processed

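Two-colour cDNA arrays measured root RNA, and the members and gene lists were chosen with earlier results of these data known. The deposited values are log2 ratios, which per the labels set a query in Cy3 against a pooled reference in Cy5, and they equal the log2 of a ratio rounded to 2 decimals. Background correction and normalization were not given in the sources used here. No dye swap is named, so a dye effect is not averaged out within a group, but it is common to both groups of a contrast.

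Probes were means of the 2 spots of a clone. They were tested where at least 2 of 3 arrays of each group had a value (8938 probes). The test was limma 3.58.1 in R 4.3.3 over all 36 root arrays, or all 72 for root against leaf, two-sided, with Benjamini-Hochberg adjusted p under 0.05 over all tested probes. Leaf cold against no stress was fitted over the leaf arrays alone. Adjusted p-values given for an alternative setting come from the same test under that setting, and all others from the main fits. Differences of effects were tested as coefficients of their own. The script was tested on simulated data.

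Clones with 1 gene symbol were named through the platform annotation and RefSeq names. A gene was eligible where most of its tested probes passed in 1 direction, and the 14 highest and 14 lowest by median were named with the probe nearest the median. List members were named besides.

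Whether a replicate number marks the same experiment in both groups is not given in the sources used here. The main fit did not pair the samples by number. Deviations of same-numbered cold and no-stress arrays from their group means correlated with r = 0.21, 0.15 and 0.20 over 8045 clones. For different numbers r was -0.18 to -0.01. Deviations from a group mean offset each other, so the values for different numbers are no independent contrast. The replicate number as a block, quantile normalization, array weights, only the first spot, other fits and leaving out each array were tried as alternatives. The number of arrays limits the precision. The planned search of promoter motifs was not run, and no sequences are shown. Genes known only by a locus number are counted but not named.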

Additional observations from a re-analysis of the deposited data

Results flagged for a closer look

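For these named genes, limma found a cold effect at 27 h unlike the one at 9 h or the one in leaf, by a test of the difference itself. The genes were ranked on root values at 27 h, which enter both tests. Between tissues, root minus leaf, CO differed by 2.83 ± 0.37 (SE, adjusted p = 1.27e-07), InvCD141 by 2.29 ± 0.55 (adjusted p = 0.00274) and NAC2 by 1.845 ± 0.54 (adjusted p = 0.014). StWIPK differed by 1.30 ± 0.39 (adjusted p = 0.0183), METK2 by 1.15 ± 0.38 (adjusted p = 0.0327) and brittle1 by -1.06 ± 0.35 (adjusted p = 0.0317). The second METK2 clone did not pass this test. Between times, 27 h minus 9 h, CO differed by -2.47 ± 0.29 (adjusted p = 2.45e-06), SS2 by -1.14 ± 0.27 (adjusted p = 0.0115) and FBPase by 1.44 ± 0.37 (adjusted p = 0.0189). The 27 h call of FBPase against no stress was lost without cold replicate 2 or no-stress replicate 3. Those of InvCD141, SS2 and brittle1 were lost after quantile normalization (adjusted p = 0.665, 0.363 and 0.0549). The differences between tissues and between times were not fitted under that normalization. CO was the only one of the 28 genes with both differences, among those tested in both tissues. At 9 h and 27 h the labels name no time of day, and its part in these values was not tested.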

How the results depend on the processing

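Limits: 3 arrays a group bound the precision, the direction of the ratio is likely and not settled, the authors' normalization is unknown here, and most clones have no gene name. The 3499 probes that passed became 2041 (1049 higher, 992 lower) after quantile normalization, and tests of the cold arrays against 0 gave 5228 (2676 higher, 2552 lower). Quantile normalization sets all root arrays to 1 shared distribution. Before it the SD of the log2 ratio was 0.67 to 0.79 on the cold arrays and 0.26 to 0.34 on the no-stress arrays. How much of the lost calls this accounts for was not tested. Leaving out 1 array gave 2888 to 3136 in all, 1519 to 1655 higher and 1354 to 1481 lower. For 27 h minus 9 h it gave 299 to 535 in all (195 to 302 higher, 104 to 233 lower), the lowest without no-stress replicate 2, while without no-stress replicate 3 it gave 329 and, without cold replicate 2, 130 lower. For root minus leaf it gave 887 to 1262 and for cold minus heat 3562 to 3753. Fitted on its own groups alone, cold minus heat gave 2602 (1422 higher, 1180 lower). With replicates as a block 3651 passed (1893 higher, 1758 lower), and the block changed no call of the 28 genes.

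Of 414 values of the 28 genes under 15 settings, 401 kept direction and call and 13, of 6 genes, lost the call. Signs turned for METK1 131687 (-0.28) and 158666 (-0.0949), PHA2 157335 (-0.0699) and SS2 145007 (0.0874) after quantile normalization, and for 16R 139774 (0.40), NtK-1-like 150321 (0.33) and PCAS-1 155772 (-0.62) with cold arrays against 0. The block also ended the call of PHA2 157335 and made calls of FDH 147938, NtK-1-like 131522 and TUBB1 150473. The cause was not tested.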

Other observations

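Several named genes outside the lists moved as well, and they were chosen after their values were seen. RBOHC, an NADPH oxidase of the family that makes apoplastic superoxide, had log2 ratios of 1.69, 0.96 and 1.12 in cold and -0.08, -0.05 and -0.61 without stress, a 2.83-fold rise. All 4 tested PPS1 clones rose, by 0.87 to 1.13, and none of them passed after quantile normalization (adjusted p from 0.06 to 0.302). All 3 SI1 clones fell in cold, by 0.65 to 0.76, and clone 134812 lost the call after quantile normalization (adjusted p = 0.0696) and without cold replicate 3 (adjusted p = 0.0577). In heat, against the same no-stress arrays, they stood at 0.92, 1.07 and 1.08, and the direct cold minus heat difference was -1.58, -1.73 and -1.85.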
